A study of Mus musculus with 12 samples.

Results

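The choroid plexus genes Ttr, Kl, Folr1, Aqp1, Clic6, Kcne2, Otx2, Sostdc1, F5 and Slc4a5 were followed across the forebrain of juvenile and adult Shank3 knock-out mice as a measure of how much choroid plexus the dissected tissue carried. The 10 genes were taken by symbol from a table of 19268 genes. All 10 were found, none was listed at 0 in any library, and all 10 passed the filter on low values in every comparison. The tissue was forebrain dissected without the olfactory bulb, and the mice were C57BL/6J males, either juvenile (postnatal day 25, P25) or adult (postnatal day 60, P60). The wild-type (WT) groups P25-WT and P60-WT carried intact Shank3, the gene of a scaffold protein at excitatory synapses, and the knock-out (KO) groups P25-KO and P60-KO were homozygous for a deletion of internal Shank3 exons. The labels name no treatment, and each of the 4 groups had 3 libraries, of 1 mouse each by the study's description. Other Shank3 alleles were not studied here. The labels do not say whether the 3 mice of a group came from different litters, so p-values measure only the spread between these libraries.

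The choroid plexus is a folded sheet of epithelium that hangs in the brain ventricles and secretes cerebrospinal fluid. Its epithelial cells move ions, water, folate and hormones from blood to fluid, and they make a few proteins, transthyretin above all, in very large amounts. The plexus of the lateral ventricles lies against hippocampus and thalamus, so a block of forebrain can hold more or less of it. In such bulk tissue, fewer cells of a type and less RNA per cell cannot be told apart.

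Positions are those of the GENCODE annotation of mouse assembly GRCm38. Kl (ENSMUSG00000058488) lies on chromosome 5 from 150952607 to 150993817, plus strand. Folr1 (ENSMUSG00000001827) lies on chromosome 7 from 101858331 to 101870788, minus strand. Aqp1 (ENSMUSG00000004655) and Slc4a5 (ENSMUSG00000068323) are both on the plus strand of chromosome 6, from 55336432 to 55348555 and from 83219828 to 83304945. Kcne2 (ENSMUSG00000039672) and Clic6 (ENSMUSG00000022949) lie close together on the plus strand of chromosome 16, from 92292389 to 92298129 and from 92485736 to 92541243. Otx2 (ENSMUSG00000021848) spans 48657677 to 48673819 of chromosome 14, minus strand. Sostdc1 (ENSMUSG00000036169) spans 36314139 to 36318452 of chromosome 12 and F5 (ENSMUSG00000026579) spans 164151838 to 164220277 of chromosome 1, both on the plus strand.

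Sequence just upstream of a start site is shown for Kl, F5 and Otx2, the members that differed between ages. Each run holds the 250 bases before a RefSeq transcript start (GRCm38.p6), 5′ to 3′ on the gene's own strand, and capitals mark CpG dinucleotides, the sites that DNA methylation acts on. The Kl window is chr5:150952357-150952606 (plus strand), the F5 window chr1:164151585-164151834 (plus strand) and the Otx2 window chr14:48667645-48667894 (minus strand). The Otx2 window lies inside the gene's span but in none of its annotated exons, and those of Kl and F5 lie directly upstream of the gene.
Kl: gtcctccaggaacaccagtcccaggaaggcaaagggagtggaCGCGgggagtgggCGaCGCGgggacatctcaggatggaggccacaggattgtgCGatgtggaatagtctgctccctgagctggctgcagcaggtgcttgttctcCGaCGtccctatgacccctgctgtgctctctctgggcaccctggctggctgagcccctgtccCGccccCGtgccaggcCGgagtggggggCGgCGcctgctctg
F5: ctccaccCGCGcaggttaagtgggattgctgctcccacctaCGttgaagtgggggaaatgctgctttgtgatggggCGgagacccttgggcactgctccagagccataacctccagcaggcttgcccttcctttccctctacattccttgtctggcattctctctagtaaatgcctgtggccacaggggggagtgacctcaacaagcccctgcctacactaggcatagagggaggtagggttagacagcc
Otx2: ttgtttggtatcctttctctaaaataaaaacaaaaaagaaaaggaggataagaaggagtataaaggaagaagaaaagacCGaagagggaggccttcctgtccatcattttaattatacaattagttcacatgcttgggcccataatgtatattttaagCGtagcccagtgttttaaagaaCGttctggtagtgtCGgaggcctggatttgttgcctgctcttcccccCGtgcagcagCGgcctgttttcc
The Kl window held 13 CpG, which was more than in 68.5% of the 32851 mouse windows of the same length, whose median was 6. The Otx2 window held 6 CpG and the F5 window 4, more than in 49.6% and 37.8% of windows. The 3 other Otx2 windows, which overlap its exons and are not shown, held 8, 14 and 9. RefSeq windows were matched for 6 of the 10 genes (Kl, Aqp1, Kcne2, Otx2, F5 and Slc4a5), 10 windows in all. The 6-letter motif TAATCC, the core that Otx-type homeodomain proteins bind, was searched on both strands, with GGATTA as its reverse complement. It was in 6.25% of all windows and in 1 of the 10, one of the other Otx2 windows. The windows did not share this motif.

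The labels were checked on Shank3 itself. It was lower in the KO libraries at P25 (log2 fold change -1.06 ± 0.09 (SE), adjusted p = 0.0134) and at P60 (-0.99 ± 0.07, adjusted p = 0.00220). Values are the authors' normalized counts, whose totals ran from 30568259 to 32348554 per library, and fold changes are on the scale of log2(value + 1). Correlations between libraries over all genes were 0.982 to 0.990 within groups and 0.971 to 0.990 between groups, so no library stood apart over the whole table.

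Ttr (ENSMUSG00000061808), on chromosome 18 from 20665280 to 20674321 on the plus strand of GRCm38, was by far the most abundant of these genes in every library. Ttr encodes transthyretin, the carrier of thyroid hormone and retinol in cerebrospinal fluid, and it took 0.0305% to 0.0547% of all normalized counts in a library. All members together took 0.0348% to 0.0617%. Divided by the length of the longest transcript, the mean Ttr level over 12 libraries was 10517 ± 1582 (SD, n = 12) normalized counts per kb. That was rank 83 of 19252 genes and 112-fold above the next member, with no overlap between the libraries' ranges. On the same per kb scale the order below Ttr was Clic6 (94.0), Kl (86.7), Folr1 (75.5), Sostdc1 (52.4), Otx2 (47.5), Kcne2 (38.9), Aqp1 (37.6), F5 (23.6) and Slc4a5 (18.2). Ranges of neighbours in that order overlapped throughout. Folr1 was above Sostdc1 in 12 of 12 libraries and Otx2 above Kcne2 in 11 of 12, whereas Sostdc1 was above Otx2 in only 6 of 12 and Kcne2 above Aqp1 in 5 of 12. Each of these 9 genes was exceeded per kb by more than 50% of the table, since 23.6% (Slc4a5) to 45.1% (Clic6) of genes were lower.

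Normalized counts per library are given next, group by group and in replicate order, starting with the secreted carrier. Ttr read 10569, 13518 and 11283 in P25-WT and 11437, 9617 and 13102 in P25-KO. At P60 it read 16928, 11368 and 12561 in WT and 13221, 13616 and 12456 in KO. Every pair of groups overlapped, and the highest library, P60-WT replicate 1, was 1.76-fold above the lowest, P25-KO replicate 2.

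The receptors came next. Kl encodes klotho, the co-receptor of fibroblast growth factor FGF23, and it read 399.9, 359 and 411 in P25-WT and 407, 416 and 392 in P25-KO. At P60 it read 742, 567 and 635 in WT and 539.8, 571 and 624 in KO. All 6 P60 libraries were above all 6 P25 libraries, while the genotypes overlapped at both ages. Folr1 encodes the folate receptor that carries folate into cerebrospinal fluid, and it read 103, 108 and 77.1 in P25-WT, 103, 82.1 and 108 in P25-KO, 137, 98.5 and 62.5 in P60-WT and 102, 106 and 103 in P60-KO. The 3 P60-WT libraries spanned the whole range of the 12, from the highest (replicate 1) to the lowest (replicate 3), and the P60-KO libraries lay almost on top of each other.

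The channels and transporters were read at lower levels, apart from Clic6. Aqp1, the water channel of the fluid-facing membrane, read 94.8, 125 and 93.4 in P25-WT, 93.2, 90.1 and 109 in P25-KO, 141, 96.2 and 64.1 in P60-WT and 109, 103 and 67.1 in P60-KO. As for Folr1, P60-WT replicate 1 was the highest and P60-WT replicate 3 the lowest of all libraries. Slc4a5, a sodium bicarbonate cotransporter, read 71.7, 67.9 and 86.2 in P25-WT, 71.4, 112 and 82.0 in P25-KO, 119, 157 and 92.2 in P60-WT and 75.4, 115 and 67.6 in P60-KO. The P60-WT libraries were all above the P25-WT libraries, and the KO libraries of the 2 ages were intermixed. Kcne2, an accessory subunit of potassium channels, read 53.6, 62.0 and 58.8 in P25-WT, 59.3, 45.9 and 66.0 in P25-KO, 89.2, 68.2 and 63.9 in P60-WT and 73.2, 70.7 and 77.9 in P60-KO. The ages did not overlap within either genotype. Clic6, of the chloride intracellular channel family, read 289, 265 and 324 in P25-WT, 343, 334 and 332 in P25-KO, 421, 373 and 379 in P60-WT and 397, 372 and 407 in P60-KO. All 6 P60 libraries were again above all 6 P25 libraries, and the 3 P25-KO libraries were above the 3 P25-WT libraries.

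The remaining members are a transcription factor and 2 secreted proteins. Otx2, the homeodomain factor needed to form and maintain choroid plexus, read 119.5, 106 and 126 in P25-WT, 98.1, 96.9 and 109 in P25-KO, 133, 111 and 147 in P60-WT and 128, 154 and 149 in P60-KO. The ages did not overlap in KO but did in WT. Sostdc1, a secreted antagonist of BMP and Wnt signals, read 100, 136 and 99.8 in P25-WT, 81.9, 95.7 and 115 in P25-KO, 82.1, 72.8 and 84.1 in P60-WT and 81.2, 95.8 and 75.2 in P60-KO. It was the only member whose P60-WT libraries were all below the P25-WT libraries. F5, coagulation factor V, read 102, 109 and 195 in P25-WT, 119.7, 105 and 119.9 in P25-KO, 298, 195 and 233 in P60-WT and 189.9, 196 and 241 in P60-KO. P25-WT replicate 3 came within 1 normalized count of P60-WT replicate 2 and exceeded 1 P60-KO library, and the other 5 P25 libraries were below every P60 library.

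**Figure D1:**
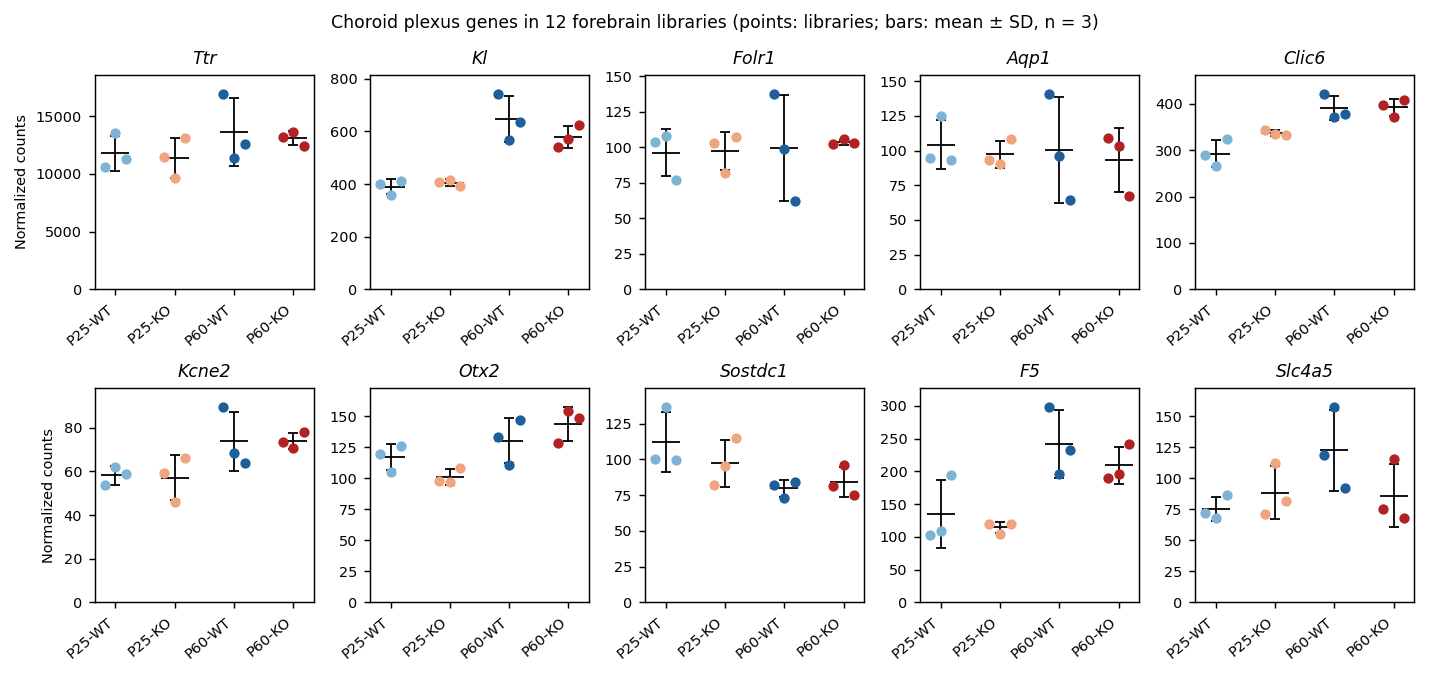
Normalized counts (vertical axes, from 0) of the 10 choroid plexus genes in the 4 groups on the horizontal axes. Points are single libraries in replicate order and bars give mean ± SD (n = 3). Kl, Clic6, Kcne2 and F5 have all P60 points above the P25 points of the same genotype, and in 7 panels the highest point is P60-WT replicate 1.

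The reading of some members is less certain than that of others. Of all 31-base words in their transcripts, none was shared with transcripts of another gene for Ttr, Aqp1, Clic6, Kcne2, Sostdc1 and Slc4a5, and 1.57% (Folr1) to 3.23% (Otx2) were shared for the other 4. Folr1 overlaps Anapc15 on the opposite strand and Clic6 overlaps 2410124H12Rik on its own strand. Otx2 overlaps Otx2os1 on the opposite strand and Gm49154, with which it shared the most words, on its own. F5 overlaps Gm16548 on the opposite strand and Gm16588 on its own. The library kit does not mark strand, so strand does not tell apart reads from overlapped parts that both genes transcribe. Clic6 and 2410124H12Rik shared no 31-base words.

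Genotype was compared first, within each age, because tissue carried unequally between KO and WT would enter every genotype comparison of this series. No choroid plexus gene differed between KO and WT at either age. At P25, 0 of the 10 genes passed an adjusted p of 0.05, beside 0.00571% of the 17515 genes tested (1 gene, Shank3), and the log2 differences ran from -0.21 (Otx2) to 0.21 (Slc4a5, which was at 0.031 without P25-KO replicate 2). Ttr was 11385 ± 1744 (SD, n = 3) in P25-KO and 11790 ± 1538 in P25-WT, a log2 difference of -0.05 ± 0.13 (SE) with a 95% interval from -0.34 to 0.23. Clic6 was 337 ± 5.91 in P25-KO and 293 ± 29.5 in P25-WT. Its log2 difference of 0.21 ± 0.11 (95% interval -0.05 to 0.46) had the smallest p-value of the 10 (unadjusted p = 0.0994, adjusted p = 1.0), and it was the 1 member of 10 whose genotypes did not overlap, beside 4.76% of all genes.

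At P60, again 0 of the 10 genes passed, beside 0.00568% of the 17610 genes tested (1 gene, Shank3), and 0 of the 10 had groups that did not overlap, beside 7.79% of genes. Ttr was 13098 ± 589.8 in P60-KO and 13619 ± 2927 in P60-WT, a log2 difference of -0.04 ± 0.12 (95% interval -0.31 to 0.24). The differences ran from -0.51 (Slc4a5) to 0.15 (Otx2, which was at 0.035 without P60-WT replicate 2 and at 0.24 without P60-WT replicate 3). Slc4a5 was 86.1 ± 25.5 in P60-KO and 123 ± 32.6 in P60-WT, and its difference of -0.51 ± 0.25 had a 95% interval from -1.07 to 0.05 (unadjusted p = 0.0686, adjusted p = 1.0). Without 1 library it ran from -0.74 (without P60-KO replicate 2) to -0.32 (without P60-WT replicate 2). No member had an unadjusted p under 0.05 at P25 (238 of all genes did) or at P60 (440 did). The intervals were wide for the most variable members. That of Aqp1 at P60 ran from -0.72 to 0.59 and that of Folr1 from -0.44 to 0.70, so changes of this size were not detectable in these genes with 3 libraries a group.

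The median of the list moved with single libraries. The median log2 difference of the 10 members at P60 was -0.02, beside 0.00013 for all genes, and it ran from -0.13 (without P60-WT replicate 3) to 0.11 (without P60-WT replicate 1) when each of the 6 libraries was left out in turn. At P25 the median was -0.05, beside -0.01 for all genes, and the same range was -0.16 (without P25-KO replicate 3) to 0.03 (without P25-KO replicate 2).

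The genotype difference at P60 was then set against that at P25 in a model of all 12 libraries. No member passed (0 of 10, beside 0.0% of 17594 genes, and 288 genes with an unadjusted p under 0.05, of which 0 were members). Slc4a5 had the largest value among the members, -0.72 ± 0.34 on the log2 scale (95% interval -1.46 to 0.01, unadjusted p = 0.0540, adjusted p = 1.0). It was followed by Otx2 at 0.35 ± 0.20 (95% interval -0.08 to 0.79), and Ttr was at 0.02 ± 0.20.

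**Figure D2:**
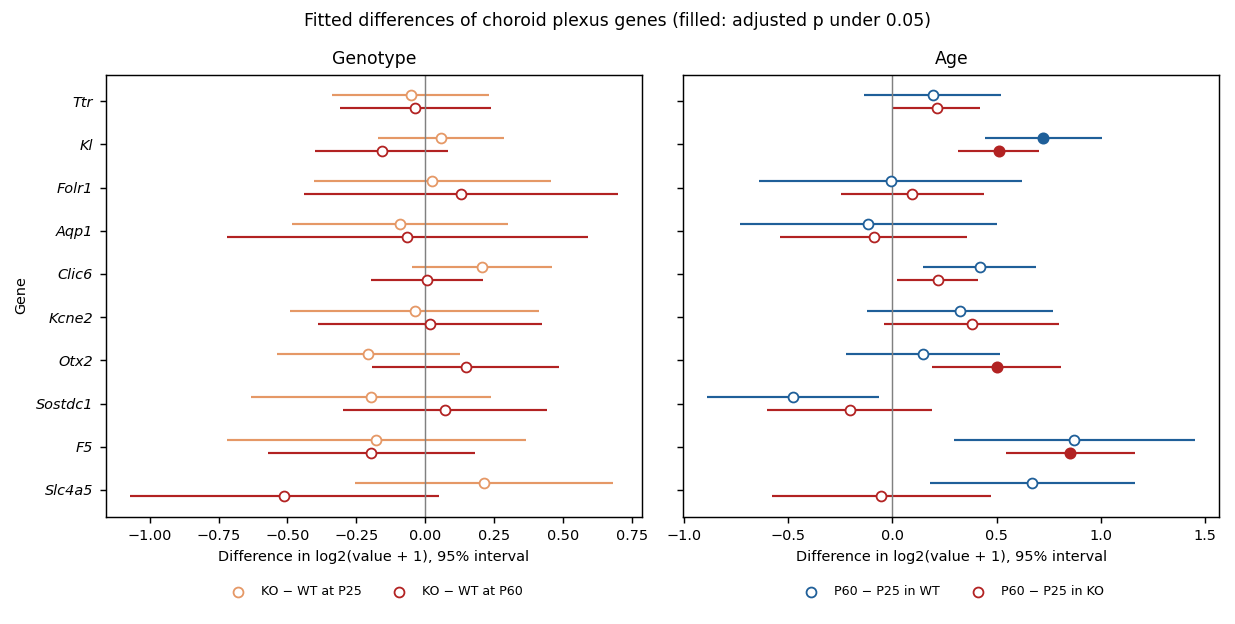
Fitted differences on the horizontal axes, as log2(value + 1), with 95% intervals, for each gene on the vertical axis. The left panel gives KO minus WT at each age and the right panel P60 minus P25 in each genotype, and filled points passed an adjusted p of 0.05. No genotype difference is filled, and Kl in both genotypes and F5 and Otx2 in KO are the filled age differences.

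Age separated several of the genes. Kl was higher at P60 than at P25 in both genotypes. In WT it went from 390.2 ± 27.3 to 648 ± 88.2 (SD, n = 3), a 1.66-fold difference of means (log2 fold change 0.72 ± 0.12 (SE), adjusted p = 0.0144). In KO it went from 405 ± 12.5 to 578 ± 42.5, 1.43-fold (log2 fold change 0.51 ± 0.09, adjusted p = 0.00387). The WT and KO age comparisons share no libraries, but Kl is 1 of the genes chosen with earlier results of these data known. In WT the call was lost without P25-WT replicate 1, P60-WT replicate 1 or P60-WT replicate 3 (highest adjusted p = 0.0820) and without the variance trend (adjusted p = 0.0601).

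F5 and Otx2 rose in KO. F5 went from 115 ± 8.62 to 209 ± 28.0 there, 1.82-fold (log2 fold change 0.85 ± 0.14, adjusted p = 0.00308). In WT its means were 136 ± 51.6 and 242 ± 51.8, and the fitted value of 0.87 ± 0.26 did not pass (adjusted p = 0.0648), with P25-WT replicate 3 at 195 against 102 and 109 in the other P25-WT libraries. Without that library F5 was at 1.17 on the log2 scale in WT and passed (adjusted p = 0.0111). Otx2 went from 101 ± 6.40 to 144 ± 13.6 in KO, 1.42-fold (log2 fold change 0.50 ± 0.14, adjusted p = 0.0305). That call held without P60-KO replicate 1 (adjusted p = 0.0415) and was lost when any of the other 5 KO libraries was left out (adjusted p = 0.0528 to 0.0872). With the replicate number as a block in the fit it was lost too (adjusted p = 0.0549). In WT Otx2 was at 117 ± 10.5 and 130.3 ± 18.2 (0.15 ± 0.16, adjusted p = 0.587). Leaving out 1 library there gave 0.056 (without P60-WT replicate 3) to 0.26 (without P60-WT replicate 2). The test of whether the age difference of Otx2 differs between genotypes is the interaction given above, which it did not pass.

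Of the 10 members, 1 rose and 0 fell in WT, beside 3.66% of genes higher and 4.99% lower. In KO 3 rose and 0 fell, beside 9.37% of genes higher and 11.3% lower. Over all genes the split was 644 higher and 877 lower in WT and 1649 and 1992 in KO, and with libraries scaled to equal totals it was 991 and 681 in WT and 2108 and 1620 in KO. Counting libraries alone, 5 members in WT (Kl, Clic6, Kcne2, F5 and Slc4a5) and 5 in KO (Kl, Clic6, Kcne2, Otx2 and F5) had every P60 value above every P25 value, beside 17.6% and 18.9% of all genes. Kl, Clic6, Kcne2 and F5 were in both sets, 4 of the 5 members of each. Over all genes 10.9% were in both, which was 61.4% of those higher in WT and 57.2% of those higher in KO. In the opposite direction stood Sostdc1 in WT, 1 of 10 beside 18.4% of genes, and 0 of 10 in KO, beside 20.5%. The median log2 difference of the members was 0.26 in WT and 0.22 in KO, beside -0.001 and 0.01 over all genes tested, and 7 of 10 values were positive in each genotype. Leaving out 1 library gave medians of 0.15 (without P60-WT replicate 1) to 0.35 (without P60-WT replicate 3) in WT and of 0.17 to 0.26 in KO.

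The members that did not pass covered a wide range. Clic6 was 1.34-fold higher at P60 in WT (0.42 ± 0.12, adjusted p = 0.0614) and 1.16-fold higher in KO (0.22 ± 0.09, adjusted p = 0.104). Kcne2 had values of 0.33 ± 0.20 in WT (adjusted p = 0.309, and 0.18 without P60-WT replicate 1) and 0.38 ± 0.19 in KO (adjusted p = 0.179, and 0.24 without P25-KO replicate 2). Slc4a5 stood at 0.67 ± 0.22 in WT (adjusted p = 0.0846) and at -0.05 ± 0.24 in KO. Ttr, the member that dominates the summed level, had values of 0.19 ± 0.15 in WT (95% interval -0.13 to 0.52, adjusted p = 0.406) and 0.21 ± 0.09 in KO (95% interval 0.003 to 0.42, adjusted p = 0.137), which is a ratio of means of 1.16 and 1.15. In KO it ran from 0.097 (without P25-KO replicate 2) to 0.32 (without P25-KO replicate 3) when 1 library was left out. Folr1 and Aqp1 stayed near 0 in both genotypes, with values from -0.11 to 0.10 and standard errors of 0.15 to 0.28. Sostdc1 was at -0.47 ± 0.18 in WT (adjusted p = 0.128) and -0.20 ± 0.18 in KO, where leaving out 1 library gave -0.32 to -0.081. Across the members the age values ran from -0.47 to 0.87 in WT and from -0.20 to 0.85 in KO.

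A wider list of genes known from choroid plexus epithelium was read beside the members. It held 44 genes, of which 42 were in the table and 40 were tested in the age comparisons. In WT 4 rose and 2 fell, and in KO 6 rose and 6 fell, with medians of -0.01 and 0.003 on the log2 scale. Over all genes 3.66% rose and 4.99% fell in WT and 9.37% and 11.3% in KO. None of the tested genes of this list passed in either genotype comparison or in the interaction. Its most abundant genes, Enpp2 (autotaxin) and the bicarbonate transporter Slc4a10, are also made elsewhere in brain, and Enpp2 was at 0.06 ± 0.09 in WT (adjusted p = 0.672) and 0.01 ± 0.05 in KO (adjusted p = 0.933). Slc4a10 rose in WT by 0.31 ± 0.08 (adjusted p = 0.0436) and was at 0.14 ± 0.07 in KO (adjusted p = 0.194).

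The genes of this wider list that passed were the following. Prlr, the prolactin receptor, rose by 0.94 ± 0.17 in WT (adjusted p = 0.0188) and by 0.71 ± 0.18 in KO (adjusted p = 0.0230). The carbonic anhydrase gene Car12 rose by 0.56 ± 0.14 and 0.38 ± 0.08, and the cation channel gene Trpm3 by 0.44 ± 0.08 and 0.43 ± 0.06 (adjusted p from 0.00215 to 0.0407). In KO the potassium channel gene Kcnj13 (0.74 ± 0.17), the membrane protein gene Tmem72 (0.56 ± 0.15) and Cab39l (0.24 ± 0.07) rose too, with adjusted p from 0.0131 to 0.0480. The genes that fell in both genotypes were Igfbp2, which encodes a binding protein of insulin-like growth factors (-0.56 ± 0.13 in WT and -0.49 ± 0.09 in KO), and the copper importer gene Slc31a1 (-0.57 ± 0.10 and -0.47 ± 0.07). Slc22a8 (an organic anion transporter), Lbp, Slc12a2 (a sodium, potassium and chloride cotransporter) and Slc29a4 (a monoamine transporter) fell in KO, by 0.42, 0.41, 0.23 and 0.27 on the log2 scale.

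Blood and myelin markers moved with age by more than the members. All 6 blood genes were lower at P60 in WT and 5 of 6 in KO, with medians of -2.12 and -1.90. Their summed value ran from 20519 to 43003 in the 6 P25 libraries and from 5899 to 7307 in the 6 P60 libraries. Hbb-bs, a beta globin gene, was at -2.11 ± 0.23 in WT (adjusted p = 0.00205) and -2.03 ± 0.22 in KO (adjusted p = 0.000562). Of 10 oligodendrocyte genes, 9 were lower at P60 in each genotype, with medians of -1.32 and -1.17, and Mbp, which encodes myelin basic protein, was at -1.15 ± 0.08 and -0.93 ± 0.09. Of 18 meningeal genes, 5 were lower in WT and 6 lower in KO, among them Igf2 (-0.85 ± 0.12 and -0.80 ± 0.08) and Col1a1 (-1.18 ± 0.14 and -1.24 ± 0.10), while Ptgds, which meninges and choroid plexus both make, rose in KO by 0.42 ± 0.07 (adjusted p = 0.00290) and was at 0.45 ± 0.14 in WT (adjusted p = 0.0794). Igf2 is also made by choroid plexus. Among 16 ependymal genes, 1 was lower in WT (Mia) and 0 in KO, and Foxj1 was at -0.20 ± 0.13 (adjusted p = 0.318) and -0.02 ± 0.10 (adjusted p = 0.922). Counts of the remaining lists are to be read beside the 4.99% of all genes that were lower in WT and the 11.3% lower in KO. Of the astrocyte genes 4 of 10 were lower in each genotype, of the endothelial and mural genes 2 of 17 in WT and 3 of 17 in KO, and of the microglia and olfactory bulb genes 0 passed in either. Of 14 neuron genes, 1 was higher and 3 lower in WT and 2 higher and 4 lower in KO. Of 13 thalamic genes 1 was lower in WT, and 1 was higher and 2 lower in KO. Of the hypothalamic genes 1 (Avp) was lower in KO, and of the 3 pituitary and pineal genes tested 0 passed. None of the 13 other lists had a called gene in a genotype comparison. The part of these other cells, and of the share of blood and myelin in the libraries' totals, in the age differences of the choroid plexus genes was not tested.

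**Figure D3:**
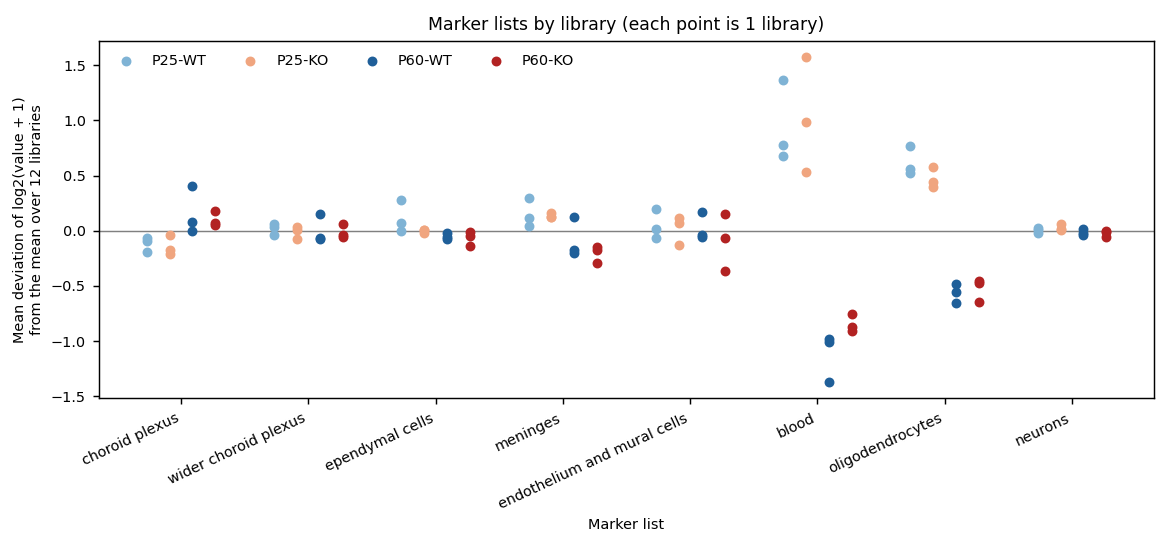
Mean deviation of log2(value + 1) from each gene's mean over 12 libraries (vertical axis), averaged over the genes of each marker list (horizontal axis), with 1 point per library and colors for the 4 groups. Blood and oligodendrocyte lists separate P25 from P60 widely, the choroid plexus genes lie between -0.21 and 0.40 with P60-WT replicate 1 on top, and the neuron list stays between -0.06 and 0.06.

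Libraries of the same group differed widely in some of the genes and little in others. The SD of log2(value + 1) within groups was 0.21 for Ttr, higher than that of 96.6% of the 446 genes whose mean level was within 1.5-fold of its own, whose median SD was 0.09. It was 0.37 for Aqp1, 0.33 for Slc4a5 and Folr1 and 0.32 for F5, higher than in 80.0% to 89.0% of genes of like level. Sostdc1 (0.20), Kcne2 (0.19), Otx2 (0.15), Kl (0.12) and Clic6 (0.09) varied less than the median gene of their level, and Clic6 less than all but 9.80% of them. The median SD of the 10 members was 0.21, beside 0.16 over all genes tested. Thus 5 of the 10 members were above the median SD of their level and 5 below it.

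P60-WT replicate 1 had the highest level of these genes among the 12 libraries. It was the highest of 12 for 7 of the 10 members (Ttr, Kl, Folr1, Aqp1, Clic6, Kcne2 and F5), and its mean deviation from the genes' 12-library means was 0.40 on the log2 scale. The other 11 libraries lay between -0.21 and 0.18 on that measure. P25-KO replicate 2 was at -0.21 and was the lowest of 12 for Ttr, Kcne2 and Otx2. The members did not all go along, however, since in P60-WT replicate 1 Sostdc1 was below its 12-library mean by 0.16, and in P25-KO replicate 2 Slc4a5 was 0.32 above. The wider choroid plexus list was also highest in P60-WT replicate 1 (0.15, beside -0.08 to 0.06 in the others), whereas the ependymal list was not (-0.02, beside -0.14 to 0.28). The meningeal list was at 0.12 in that library and at -0.20 and -0.17 in the other P60-WT libraries. Without P60-WT replicate 1, Kl at P60 against P25 in WT was 0.62 on the log2 scale and no longer passed (adjusted p = 0.0663), and the fitted age difference of Ttr in WT was 0.03.

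**Figure D4:**
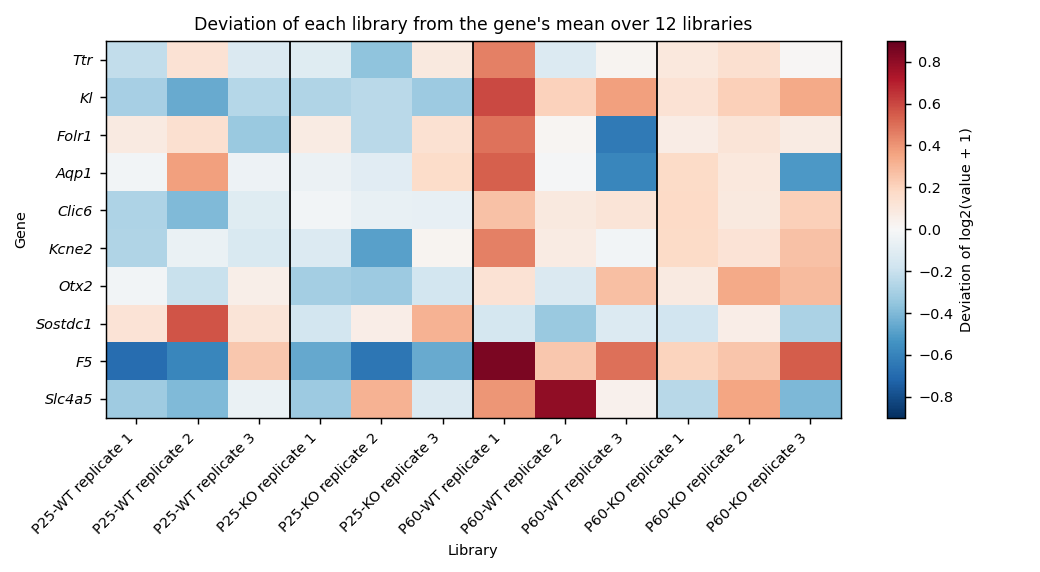
Deviation of log2(value + 1) from each gene's mean over 12 libraries (color scale), with genes in rows and libraries in columns, and black lines between the 4 groups. P60-WT replicate 1 is red for all genes except Sostdc1, and Kl, Clic6 and F5 turn from mostly blue at P25 to red at P60.

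Whether the genes deviated together among libraries of the same group was asked next. Likeness to Ttr was measured over the deviations of the 12 libraries from their group means. Kcne2 followed Ttr most closely (Pearson r = 0.86, exact permutation p = 0.0216, and Spearman rho = 0.83, exact permutation p = 0.0270, both two-sided), which placed it at rank 32 of 17593 genes by r. Aqp1 came next (r = 0.69, exact permutation p = 0.0448, rho = 0.66, p = 0.0463). Folr1 (r = 0.63, rho = 0.59) and Sostdc1 (r = 0.58, rho = 0.45) had exact permutation p-values of 0.178 and 0.0772 for r and 0.140 and 0.174 for rho. F5 (r = 0.32, rho = 0.45), Kl (0.24 and 0.07), Otx2 (0.18 and 0.22), Clic6 (0.09 and 0.06) and Slc4a5 (-0.27 and -0.10) had exact permutation p-values for r from 0.412 to 0.823 and for rho from 0.221 to 0.883.

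Of the 9 other members, 8 had a positive r with Ttr and 4 an r above 0.5, beside 49.8% and 13.2% of all genes. None of these values passed the adjustment over all 17594 genes, for which the smallest adjusted p of any gene was 0.400, Kcne2 and Aqp1 being at 0.405 and 0.4396. In all, 1947 genes had an unadjusted p under 0.05, and the smallest p that rearranging libraries within groups can give is 0.000772. The relation rested in part on 2 libraries. Without P60-WT replicate 1 and P25-KO replicate 2, the ones farthest from the median of Ttr, r was 0.48 for Kcne2, 0.43 for Aqp1, -0.01 for Folr1 and 0.93 for Sostdc1. It was then 0.02 for Otx2, -0.08 for Slc4a5, -0.14 for F5, -0.48 for Kl and -0.61 for Clic6, so 4 of 9 were positive.

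Genes outside the list with a mean of at least 50 were ranked by r with Ttr, passing over pseudogenes and identifier-like symbols. Those whose deviations were most like those of Ttr over the 12 libraries were Sgta (r = 0.95), St3gal4 (0.92), Nsfl1c (0.91), Surf6 (0.90), Chst2 (0.90) and Pdzph1 (0.90). None of these 6 belongs to the marker lists used here, and each had an adjusted p of 0.400. In the wider choroid plexus list, 28 of 40 genes had a positive r with Ttr and 7 an r above 0.5, with a median of 0.23. Igfbp2 (r = 0.88) and Trpm3 (-0.81) had the highest and the lowest value.

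**Figure D5:**
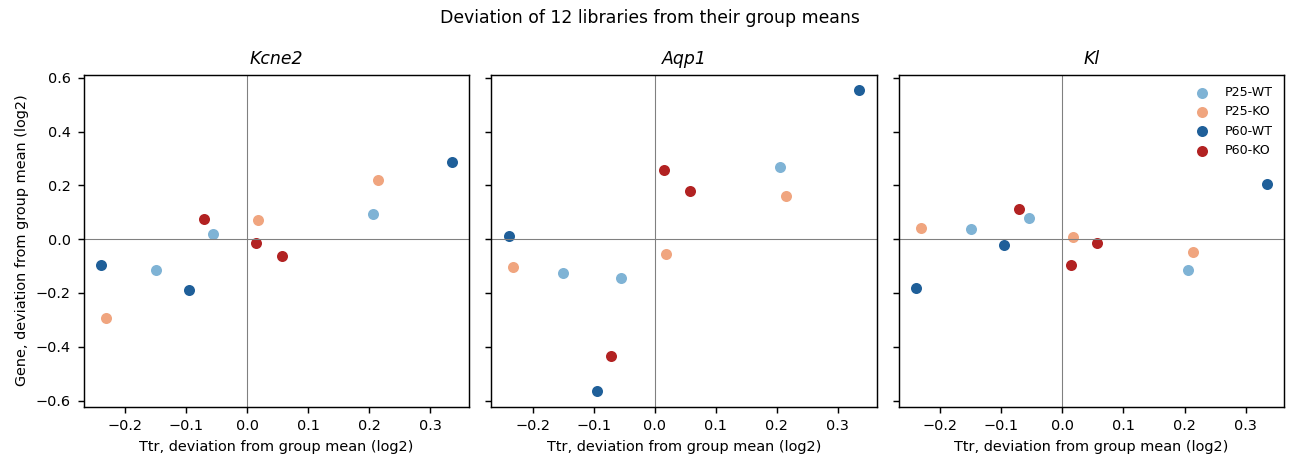
Deviation of Kcne2, Aqp1 and Kl (vertical axes) against that of Ttr (horizontal axes) from their group means in log2(value + 1), with 1 point for each of the 12 libraries, colored by group. Kcne2 (r = 0.86) and Aqp1 (r = 0.69) rise with Ttr, with P60-WT replicate 1 at the upper right, and Kl (r = 0.24) shows no such line.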

How the data were processed

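The authors quantified transcripts with Salmon 1.1.0 with GC-bias correction, used tximport for import and DESeq2 for normalization (version 1.26.0 under R 3.6.2, genome GRCm38, per the submitters' processing notes, while the study's methods give other versions of R and DESeq2). The deposited values are signal on a count scale, normalized over all 12 libraries. They are not whole reads: only 7.85% to 15.6% of low values in a library were whole multiples of one step (tolerance 0.02). No count model was therefore fitted, the depth behind each value is unknown, no detection limit was computed, and 3 libraries per group limit the precision. The annotation release the authors used is not given in the sources used here, and 19252 of 19268 identifiers were found in GENCODE for GRCm38, which gave symbols, positions and transcript lengths.

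Genes were tested where their mean over the fitted libraries reached 10, on log2(value + 1) with limma 3.58.1 (R 4.3.3, lmFit and eBayes with trend), two-sided, with Benjamini-Hochberg adjustment over all genes and a threshold of 0.05. Fold changes on this scale understate those of low genes. Genotypes were compared within an age and P60 with P25 within a genotype on the 6 libraries compared, and the interaction was fitted to all 12. Groups and replicate numbers came from sample titles. Likeness to Ttr was tested by exact permutation of libraries within groups, for all genes. Python 3.11.15 was used for descriptions. The procedures were tested on simulated data. For the fits these held whole counts, with changes larger than any called among the members, in genes above the level of most members. Those runs therefore do not speak for the members' smaller changes.

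Named genes were the members, Shank3 and the 6 genes most like Ttr, with pseudogenes and identifier-like symbols passed over. From 13 other marker lists they were the 2 most abundant genes or those past the threshold. Of those lists, astrocyte, microglia, endothelial, neuron, olfactory bulb, thalamus, hypothalamus and pituitary genes served as further checks. The members and lists were chosen with earlier results of these data known. Alternatives changed the pseudocount, minimum mean, scaling, variance model, libraries in the fit and replicate block, or left out 1 library at a time.

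Same-numbered libraries of different groups had correlated deviations of only -0.07 to 0.17, and in no comparison did all exceed 0.1, so replicate numbers were not taken to pair libraries.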

Additional observations from a re-analysis of the deposited data

How the results depend on the processing

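Of the 10 members, the number called in a genotype comparison stayed at 0 under every alternative at P25 and P60, and at 0 in the interaction. The number higher at P60 in WT was 1 in the reported fit, 2 with libraries scaled to equal totals (Clic6 and Kl), 3 with all 12 libraries in one fit (Clic6, F5 and Kl), 0 without the variance trend and 0 to 3 when 1 library was left out (0 without P25-WT replicate 1, P60-WT replicate 1 or P60-WT replicate 3, and 3 without P25-WT replicate 3). Kl had an adjusted p of 0.00868 to 0.0820 without 1 library there and of 0.000782 to 0.0601 under the other alternatives. In KO the number was 2 to 3 in every setting: Kl (adjusted p 0.00945 to 0.0159 without 1 library) and F5 (0.00770 to 0.0120) passed throughout, and Otx2 (0.0415 to 0.0872) was lost in 5 of 6 settings without 1 library. Ttr passed in KO without P25-KO replicate 3 (adjusted p = 0.0299).

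With the replicate number as a block, 1 member was called for age in WT, 2 in KO (Otx2 at adjusted p = 0.0549), and 0 for genotype or in the interaction. For KO against WT at P60 the block gave 1017 genes with an unadjusted p under 0.05, of which 1 was a member. Without the block these were 440 and 0. Same-numbered libraries were each other's best match in 3 of 3 pairs at P60 between genotypes and in 1 of 3 elsewhere, a hint from the data only.

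Some values changed sign, and not all of them were near 0 in the reported fit. F5 for KO against WT at P25 was at -0.18 there, and r with Ttr was 0.63 for Folr1 and 0.32 for F5. Folr1 for age in WT was 0.043 with equal totals. Leaving out 1 library gave, for KO against WT at P25, ranges of -0.16 to 0.062 (Ttr), -0.0020 to 0.095 (Kl), -0.12 to 0.14 (Folr1), -0.17 to 0.043 (Aqp1), -0.15 to 0.11 (Kcne2) and -0.35 to 0.11 (F5), and at P60 -0.16 to 0.13 (Ttr), -0.17 to 0.40 (Folr1), -0.35 to 0.21 (Aqp1), -0.028 to 0.061 (Clic6), -0.077 to 0.16 (Kcne2) and -0.025 to 0.15 (Sostdc1). For age they were -0.27 to 0.29 (Folr1) and -0.39 to 0.17 (Aqp1) in WT and -0.022 to 0.17 (Folr1), -0.22 to 0.13 (Aqp1) and -0.28 to 0.13 (Slc4a5) in KO. The number of members with a positive r with Ttr was 4 without the 2 libraries farthest from its median, where Kl (-0.48), Folr1 (-0.014), Clic6 (-0.61) and F5 (-0.14) turned negative, and Slc4a5 was at 0.051 with deviations from the 12-library mean. The causes were not tested, beyond fewer libraries.

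Over all genes, 1521 were called for age in WT (122 to 2403 without 1 library, 192 without the variance trend) and 3641 in KO (2093 to 3230, and 1725 without the trend). Scaling to equal totals changed the split from 644 higher and 877 lower to 991 and 681 in WT, and from 1649 and 1992 to 2108 and 1620 in KO. Depth could not be used as a limit, since no counts were given.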

Other observations

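Among the lists read beside the choroid plexus genes, 1 gene of the pituitary, which hangs below the forebrain, stood out in 1 library. Of the 9 genes in the pituitary and pineal list only 4 had values, and Prl, Cga, Lhb, Pou1f1 and Asmt had none. Gh, which encodes growth hormone, had 272 normalized counts in P60-KO replicate 3 and 0 to 4.94 in the other 11 libraries, 7 of which were listed at 0. Tshb, which encodes a subunit of thyroid-stimulating hormone, was at 59.97 in that library and at 46.8 to 79.3 in the others. The choroid plexus genes of P60-KO replicate 3 had a mean log2 deviation of 0.05 from their 12-library means, beside 0.07 and 0.18 in the other P60-KO libraries. Gh was chosen after its values had been seen.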
